A study of Arabidopsis thaliana with 14 samples.

Results

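The loci described here lie in the pericentromeric parts of the 5 Arabidopsis chromosomes and gave no reads in wild type. They were chosen by their RPKM values in Col, as the gene IDs AT1G36000 to AT1G43999, AT2G03000 to AT2G15999, AT3G28000 to AT3G43999, AT4G04000 to AT4G08999 and AT5G27000 to AT5G36999 that were at an RPKM of 0 in all 3 Col libraries. RPKM is the number of reads of a gene divided by the kilobases of its exons and scaled to the mapped reads of the library. Of 5299 loci in the 5 windows, 3729 met this rule, and the files hold 33602 gene IDs in all. In the TAIR10.1 assembly the windows run from 13422554 to 16705876 on chromosome 1, 875233 to 6953594 on chromosome 2, 10406447 to 15785184 on chromosome 3, 1920423 to 5772949 on chromosome 4 and 9497939 to 14616135 on chromosome 5, from the start of the earliest to the end of the last annotated ID.

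Poly(A) RNA of 14-day-old Arabidopsis thaliana plants of the Columbia background, grown under long days, was read in 14 libraries. Col is the wild type, with 3 libraries. The plants of hda6-6 (3 libraries, also called axe1-5) carry a point mutation at a splice site of HDA6, and hda5-1 and hda9-1 (3 libraries each) are mutants of the related genes HDA5 and HDA9. Plants of fve-4 (1 library) have a point mutation that stops translation of FVE early, and plants of fld-6 (1 library) have a T-DNA in FLD. No treatment was given to any group, each mutant group is 1 allele, and no complemented line was among the libraries. The study describes biological repeats for Col and hda6-6, while nothing used here says whether the hda5-1 and hda9-1 libraries came from separate cultures, so p-values measure the spread between these libraries, which may be technical.

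Pericentromeric chromatin of Arabidopsis holds most of the transposable elements of the genome, with few expressed genes among them. It is kept silent by DNA methylation, by methylation of histone H3 and by removal of acetyl groups from histones. HDA6, HDA5 and HDA9 are histone deacetylases of the RPD3 type. HDA6 is known to act with the DNA methyltransferase MET1 at transposable elements and repeats, while FVE, a WD40 protein, and FLD, a histone demethylase of the LSD1 type, act with HDA6 on flowering genes.

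The annotation (RefSeq, TAIR10.1) classed 2680 of the 3729 members as pseudogenes (71.9%), 242 as transcribed pseudogenes, 684 as protein coding and 20 as tRNA genes, and 87 IDs were not found in it. By product name, 53 members are named as ECA1 gametogenesis related and 32 as defensin-like, both families of small secreted peptides.

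The highest member of all is part of a group of near-identical copies, whose sequences are shown because the group holds 4 of the 10 highest members. The sequence of AT5G35792, a pseudogene spanning 576 bases, had 8 copies of at least 80% of its span in the genome, counting itself. Of these, 6 are members, on 4 chromosomes, and these were 93.8 to 98.1% identical to each other over 15 pairs. The 150 bases from the start of each member copy are given below from the TAIR10.1 sequence of RefSeq, 5' to 3' on the strand of the gene, with capitals at the bases that differ from AT5G35792. They lie at chr5:13964643-13964792 (plus strand), chr2:1268188-1268337 (minus strand), chr3:11545357-11545506 (plus strand), chr3:13075710-13075859 (plus strand), chr4:3889052-3889201 (minus strand) and chr2:4865333-4865482 (minus strand), in the order of the lines.
AT5G35792: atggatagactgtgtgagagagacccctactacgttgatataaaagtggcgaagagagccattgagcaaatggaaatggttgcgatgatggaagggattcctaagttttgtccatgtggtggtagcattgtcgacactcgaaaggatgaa
AT2G04000: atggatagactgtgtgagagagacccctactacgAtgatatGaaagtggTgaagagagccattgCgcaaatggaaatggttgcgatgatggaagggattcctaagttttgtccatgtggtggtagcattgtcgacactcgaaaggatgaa
AT3G29700: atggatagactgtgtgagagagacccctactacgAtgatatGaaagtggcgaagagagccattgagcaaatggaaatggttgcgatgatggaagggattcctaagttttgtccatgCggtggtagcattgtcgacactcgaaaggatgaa
AT3G32070: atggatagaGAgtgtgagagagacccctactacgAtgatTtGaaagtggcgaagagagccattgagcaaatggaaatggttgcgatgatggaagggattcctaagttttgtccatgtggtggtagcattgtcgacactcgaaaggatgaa
AT4G06672: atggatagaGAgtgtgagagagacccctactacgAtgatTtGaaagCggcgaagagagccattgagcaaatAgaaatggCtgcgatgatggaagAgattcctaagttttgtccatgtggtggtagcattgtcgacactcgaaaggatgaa
AT2G12066: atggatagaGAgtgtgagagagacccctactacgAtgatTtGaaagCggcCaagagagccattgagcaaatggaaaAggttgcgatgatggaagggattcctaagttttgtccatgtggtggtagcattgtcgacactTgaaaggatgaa

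In these 150 bases AT3G29700 differed from AT5G35792 at 3 positions, AT2G04000 at 4, AT3G32070 at 5, and AT4G06672 and AT2G12066 at 9 each. Over the whole span AT3G29700 was 97.7% identical to AT5G35792, AT3G32070 97.2%, AT2G04000 96.9%, AT2G12066 94.4% and AT4G06672 93.8%. The 300 bases before the copies were less alike for most copies, at 74.3 to 97.0% identity to those before AT5G35792. How the authors' counting treated reads that match several copies is not given in the sources used here, so levels of single copies may hold reads of the others.

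The targeted genes were lowered or near 0 in their own mutants for 4 of the 5. HDA6 was at a mean RPKM of 3.31 ± 0.415 (SD, n = 3) in hda6-6 and at 8.08 to 11.5 as the genotype mean elsewhere. HDA5 was at 3.45 in hda5-1, HDA9 at 0.56 in hda9-1 and FVE at 0.227 in fve-4, while FLD was at 3.52 in fld-6 and 3.68 in Col, so the transcript level does not check that label. The files hold no read counts, and mapped reads estimated from the steps between low values ranged from 17.9 M in hda9-1 replicate 1 to 25.6 M in hda5-1 replicate 2. In this estimate 12.4 to 16.5% of the low values lay within 0.02 of a whole read, so depths are approximate. At the median exon length of the members, 1385 bases, 1 read was worth an RPKM of 0.0306 to 0.0334 in the Col libraries, so a locus at 0 in Col was not detectable at this depth and need not be without transcript. Leaf photosynthesis markers summed to 42470 to 63090 RPKM, root markers to 24.9 to 54.1, and the pollen markers to at most 0.073 with 1 of the 3 at 0 in every library. The 3 flower markers, none at 0 throughout, summed to 1.75 to 2.31 in hda6-6 and 2.82 in fve-4, above the 1.07 to 1.70 of all other libraries. Most of this was 1 marker, PI, at a mean of 1.95 in hda6-6, 2.82 in fve-4 and 1.08 to 1.31 elsewhere. The flower marker AP3 was at 0.105 in hda6-6, 0.102 in Col and 0 in fve-4. The 3 seed markers summed to 2.70 in fve-4 and at most 0.996 elsewhere. The part of such cells in the results was not tested.

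Detection of the members was concentrated in hda6-6. Of 3729 members, 584, 486 and 464 were above an RPKM of 0 in the 3 hda6-6 libraries, which is 15.7, 13.0 and 12.4%. In hda5-1 these numbers were 163, 85 and 66, and in hda9-1 they were 144, 54 and 89. The fve-4 library held 121 members above 0 and the fld-6 library 55. Thus each hda6-6 library detected more members than any other library, the hda5-1 and hda9-1 libraries overlapped, fve-4 lay within both, and fld-6 lay below every hda5-1 library and within hda9-1. Of the 5107 nuclear loci outside the windows at 0 in Col, 13.77, 11.75 and 11.16% were above 0 in the hda6-6 libraries. That share was 6.07 to 6.72% in hda5-1 and 4.23 to 5.52% in hda9-1. It was 6.91% in fve-4 and 5.78% in fld-6, beside 3.25 and 1.48% of the members. Detection in hda6-6 was thus not particular to the windows. Col is at 0 by the choice of the members, so no comparison with it was tested.

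The summed level of the members differed by more than their number. It was 438, 419 and 398 RPKM in the hda6-6 libraries, a mean of 418 ± 19.9 (SD, n = 3). The hda5-1 libraries summed to 6.14, 6.22 and 6.47 RPKM and the hda9-1 libraries to 10.3, 4.46 and 4.87 RPKM. The sums were 8.75 RPKM in fve-4 and 5.25 in fld-6. No other library came near the hda6-6 libraries, and the other mutants overlapped or lay close to each other. The nuclear loci outside the windows at 0 in Col summed to 335.2, 320.4 and 313.4 RPKM in hda6-6. They summed to 29.45 to 72.63 RPKM in the libraries of the other mutants. The high summed level in hda6-6 was thus not particular to the windows. In hda5-1 replicate 3 a single member, AT2G13660, coding for an uncharacterized protein, gave 3.83 RPKM of the sum and was at 0 in every other library. The 10 highest members held 53.8 to 56.1% of the sum in each hda6-6 library. In bulk samples, fewer cells with an active locus and less RNA in each cell cannot be told apart.

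**Figure D1:**
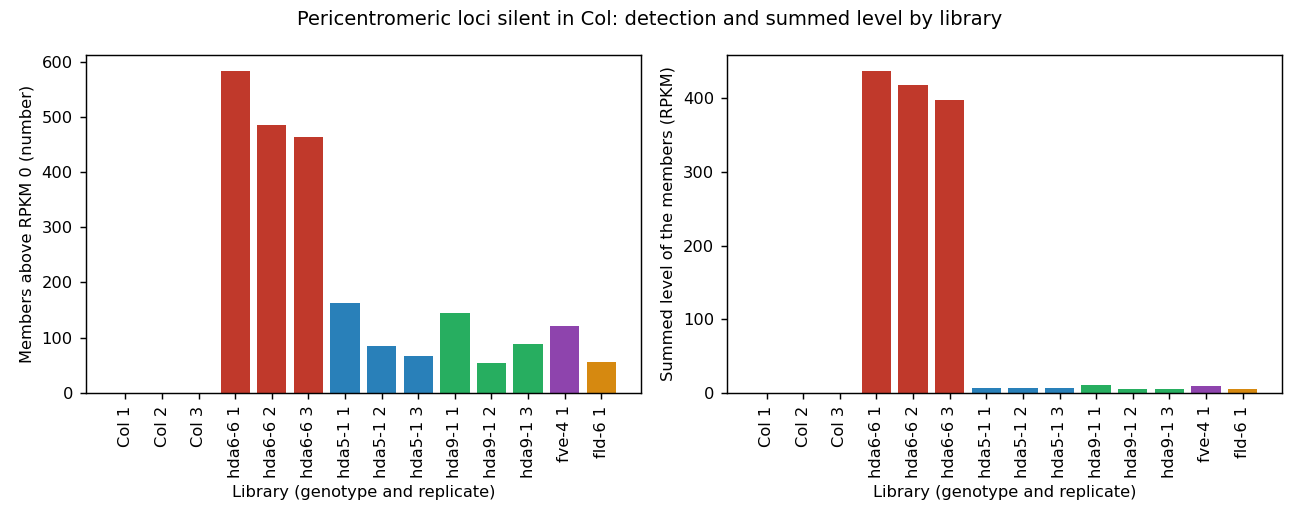
Left, number of the 3729 members above an RPKM of 0 in each of the 14 libraries. Right, summed RPKM of the members, with 1 bar per library coloured by genotype. The hda6-6 libraries stand at 464 to 584 members and 398 to 438 RPKM, and the Col bars are at 0 by the choice of the members.

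Outside hda6-6 most detected members rested on a single read or less. Estimated reads were up to 1 for 146 of the 162 detected members with a known exon length in hda5-1 replicate 1 (90.1%), and for 67.3 to 86.5% of them in the other libraries of hda5-1, hda9-1, fve-4 and fld-6. In hda6-6 this share was 40.9 to 47.4%. Members with at least 10 estimated reads numbered 126, 91 and 97 in hda6-6 and 1 to 3 in each of the other mutant libraries. Fractions of a read also occurred, with 5 to 17 members at 0.5 read in each mutant library. The replicate 1 libraries of hda5-1 and hda9-1 detected the most members of their genotypes, and without them the highest counts were 85 and 89.

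Detection was also read as the members above 0 in every library of a genotype. In hda6-6 there were 263 such members (7.05%), a further 171 were above 0 in 2 libraries and 403 in 1, and 2892 were at 0 in all 3. In hda5-1 there were 5 and in hda9-1 6 members above 0 in all 3 libraries. For comparison, the 5107 nuclear loci outside the windows that were at 0 in Col gave 4.93% in hda6-6, 0.999% in hda5-1 and 0.47% in hda9-1 by the same count. Over the 14 libraries, 2622 members (70.3%) were never above 0, and 1 member, AT3G28310, was above 0 in all 11 mutant libraries.

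The choice of a genotype at 0 itself leaves low values in the others. When hda5-1 took the place of Col in the rule, 3720 window loci were at 0 in hda5-1, of which 5 were above 0 in all 3 Col libraries and 268 in all 3 hda6-6 libraries. With hda9-1 in that place, 3749 loci were at 0, of which 12 were above 0 in all 3 Col and 249 in all 3 hda6-6 libraries. Summed Col levels of these loci were 4.85 to 7.53 and 6.81 to 8.52 RPKM. These sums lay in the range that hda5-1 and hda9-1 showed for the members, whereas hda6-6 was at 305 to 452 RPKM under either choice.

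Among the 263 members detected in all 3 hda6-6 libraries, 10 had a mean RPKM of at least 10, 42 of 1 to under 10, 132 of 0.1 to under 1 and 79 below 0.1. The level was steady between replicates for the high members, with a median coefficient of variation of 0.185 over the 52 members at a mean of at least 1, against 0.449 over the 79 members below 0.1. Of the 263, 150 were listed at 0 in all 8 libraries of the other mutants. The same count was not made over all gene IDs, so the 150 only describes these members. A total of 241 members had every hda6-6 library above every other mutant library, which is 6.46% of all members and 21.8% of the 1107 above 0 in at least 1 mutant library. Among the 27228 gene IDs above 0 in at least 1 mutant library this share was 5.51%.

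The repeated sequence shown above held the highest 2 members, and 2 more of its copies were among the highest 10. AT5G35792 was at 41.6, 37.98 and 35.8 RPKM in hda6-6, at 0.0988 in fld-6 and at 0 in the other 10 libraries. AT2G04000 was at 29.5, 26.9 and 22.8 RPKM in hda6-6 and listed at 0 in all other libraries. AT3G29700 was at 20.8, 14.7 and 19.2 RPKM and AT3G32070 at 18.1, 16.8 and 16.9. The members with the most differing bases were the lowest of the group. AT4G06672 was at 3.77, 2.00 and 4.16 RPKM and AT2G12066 at 1.40, 0.542 and 0.98. Outside hda6-6 no member copy exceeded 0.0988 RPKM in any library. Together the 6 copies made 23.6 to 26.3% of the summed level of all members in the hda6-6 libraries.

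The other 2 copies of this sequence were also high in hda6-6 without being members. AT2G04320 lies in the chromosome 2 window at 1509377 to 1509951 and had 1 value above 0 in Col, 0.13 RPKM in replicate 2. Its hda6-6 values were 45.8, 38.6 and 35.9 RPKM. AT2G23490, on the arm of chromosome 2 at 10005109 to 10005684, was at 67.7, 51.5 and 65.2 RPKM in hda6-6, above every member, and at 0 in Col. It was above 0 in 2 hda9-1 libraries, at 0.701 in replicate 1 and 0.0565 in replicate 3.

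**Figure D2:**
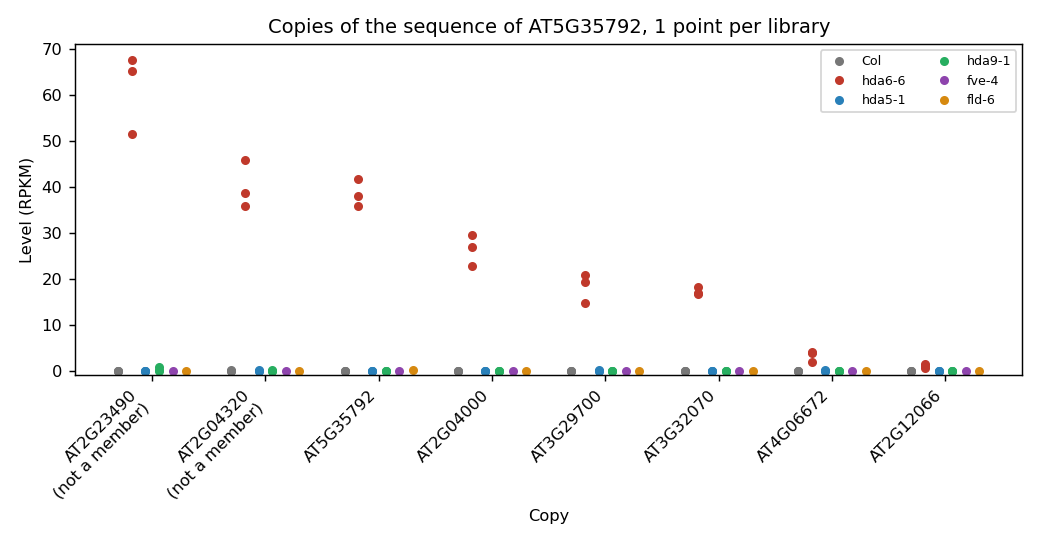
RPKM of the 8 copies of the AT5G35792 sequence, with 1 point per library coloured by genotype and copies ordered by hda6-6 replicate 1. The hda6-6 points run from 0.542 to 67.7 RPKM, and all other points are at 0.701 or below.

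Of the other high members, AT5G28880, a pseudogene at 25.2, 23.8 and 25.7 RPKM in hda6-6, had no further copy over 80% of its span. AT2G13547, annotated as protein coding, was at 22.1, 25.1 and 20.2 RPKM and was also without such a copy. AT3G43722 (21.0, 30.0 and 21.9 RPKM) and AT3G30778 (19.6, 23.3 and 20.7 RPKM) are not in the annotation used here. The hda6-6 libraries were each far above every other library for these 4 members, of which the highest other value was 0.466, of AT3G30778 in hda9-1 replicate 1.

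AT1G36240 encodes a protein of the ribosomal L7Ae/L30e family. It was at 25.03, 15.2 and 24.7 RPKM in hda6-6, at 0.13 in hda5-1 replicate 1 and 0.33 in hda9-1 replicate 1, and otherwise at 0. Its longest match elsewhere was AT1G77940 on the arm of chromosome 1, 76.7% identical over 317 bases, which had a mean of 132 RPKM in Col and 176 in hda6-6.

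AT4G04030 is annotated as OFP9, a transcription repressor of the ovate family, and lies at the edge of the chromosome 4 window. It was at 9.46, 10.8 and 8.62 RPKM in hda6-6, at 0.0151 in hda5-1 replicate 1, and at 0.0768 and 0.0697 in hda9-1 replicates 1 and 3. A copy with 99.2% identity over 1312 bases, AT3G54730, lies on the arm of chromosome 3. The pair differed at 11 bases with no gap. The 150 bases that hold the most of these differences, 5, are shown because the copies are nearly identical elsewhere, with capitals at the differing bases. They lie at chr4:1936789-1936938 (minus strand) and chr3:20260164-20260313 (plus strand) of TAIR10.1.
AT4G04030: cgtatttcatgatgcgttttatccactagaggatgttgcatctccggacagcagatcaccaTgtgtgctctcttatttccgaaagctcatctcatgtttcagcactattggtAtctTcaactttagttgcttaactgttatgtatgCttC
AT3G54730: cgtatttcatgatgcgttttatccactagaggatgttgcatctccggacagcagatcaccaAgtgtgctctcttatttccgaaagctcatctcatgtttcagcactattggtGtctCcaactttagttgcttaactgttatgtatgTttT

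AT3G54730 was at 10.6, 10.6 and 11.2 RPKM in hda6-6 and at 0, 0.0637 and 0.0317 in Col. In fve-4 it was at 0.679, where AT4G04030 was at 0. Another copy, AT2G19850 on the arm of chromosome 2, was 98.3% identical to AT4G04030 and stood at 8.32, 6.92 and 5.80 RPKM in hda6-6 and at 0 in Col. The listed levels of the 3 copies, on 3 chromosomes, were within 2-fold of each other in hda6-6. These levels may hold reads of the other copies, as may those of the copies named below. In hda5-1 and hda9-1 replicate 1, AT4G04030 stood for 0.5 and 1.8 estimated reads. AT3G54730 was there at 0.0101 and 0.0514 RPKM and AT2G19850 at 0.0111 and 0.0564, so detection of AT4G04030 itself is uncertain.

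AT5G28235, of the Ulp1 protease family, was at 4.24, 5.36 and 3.67 RPKM in hda6-6. Its closest copy, AT5G45570 on the arm of chromosome 5, was 99.4% identical over 2050 bases and stood at 3.50, 2.49 and 2.40 RPKM in hda6-6 and at 0 in Col. The member copies AT4G08430 (95.8% identical) and AT1G42590 (90.8%) were lower, at 0.567 to 0.698 and 0.204 to 0.343 RPKM. The most distant member copy, AT1G42525 (64.8%), was at 0 in every library. AT1G36185, a pseudogene with 4463 bases of exon, was at 6.48, 6.42 and 5.92 RPKM, while its only other copy, AT1G16660 on the chromosome 1 arm, 89.7% identical, was at 0.105 to 0.133. Copies of a member therefore did not share its level in every case.

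AT2G04210 had 25 further copies over 80% of its span, the most among the 18 highest members with a sequence, and 13 of those 18 had at least 1. It was at 3.68, 5.11 and 4.02 RPKM in hda6-6, and its closest copy, AT1G40105 with 97.8% identity, was at 0.089 to 0.119. AT4G06641, a transcribed pseudogene related to beta-galactosidase, was at 3.73, 4.75 and 4.57 RPKM in hda6-6 and 0 in all other libraries. AT5G33251, another transcribed pseudogene, was at 9.87, 8.16 and 5.70 RPKM, with 0.0411 in hda9-1 replicate 1 as its highest value elsewhere.

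**Figure D3:**
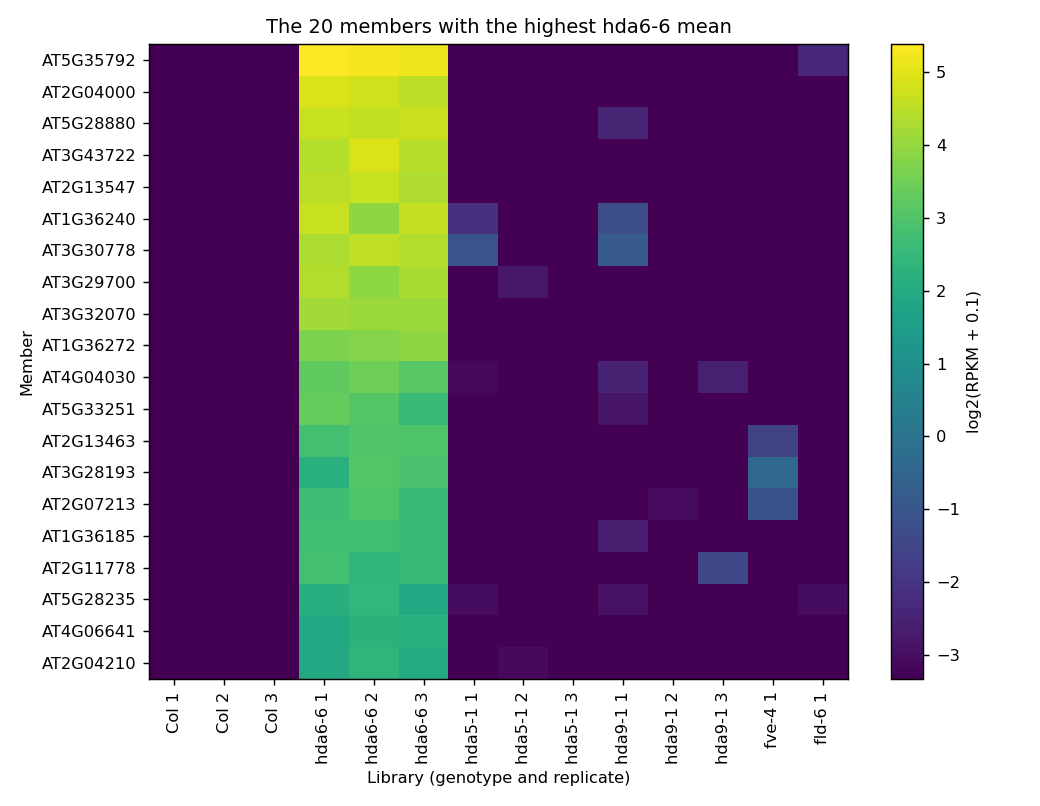
Level of the 20 members with the highest hda6-6 mean in each of the 14 libraries, as log2(RPKM + 0.1), so that an RPKM of 0 has the darkest colour. The 3 hda6-6 columns are bright in all 20 rows, and the most filled column elsewhere is hda9-1 replicate 1, with 7 of 20 members above 0.

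Of the 20 highest members, 4 were above 0 in hda5-1 replicate 1, 7 in hda9-1 replicate 1 and 0 to 3 in each of the other libraries outside hda6-6. Over the 52 members with a hda6-6 mean of at least 1, hda9-1 replicate 1 was above 0 in 19 with a sum of 3.13 RPKM, and fve-4 in 10 with a sum of 3.00. The other 6 libraries were above 0 in 3 to 8 of them with sums of 0.159 to 0.997 RPKM. The part of the replicate 1 libraries in the low values of hda5-1 and hda9-1 was not tested.

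The members were detected in hda6-6 on every chromosome. On chromosome 2, 82 of 948 members were above 0 in all 3 hda6-6 libraries (8.65%), on chromosome 3 67 of 917 (7.31%), on chromosome 1 31 of 433 (7.16%), on chromosome 5 51 of 820 (6.22%) and on chromosome 4 32 of 611 (5.24%). Per library, the mean share of detected members in hda6-6 was 15.5% ± 1.07 (SD, n = 3) on chromosome 2, 14.4% ± 2.25 on chromosome 3, 13.3% ± 2.09 on chromosome 5, 13.2% ± 1.39 on chromosome 1 and 10.8% ± 1.84 on chromosome 4. Neighbours in this order differed by less than the larger of their SDs, except chromosomes 1 and 4. The chromosomes share the same 3 libraries, so these SDs also hold differences between libraries. Within each library chromosome 3 was above 5 (17.01 and 15.73%, 13.41 and 11.95%, 12.87 and 12.32%) and chromosome 1 above 4. Chromosomes 2 and 3, and likewise 5 and 1, changed order between libraries. In hda5-1 the means were 2.36 to 3.06% and in hda9-1 1.64 to 3.02% over the 5 chromosomes. The fve-4 library held 2.94 to 4.01% and the fld-6 library 0.982 to 1.90%. Every hda6-6 library was above every library of the other mutants on each chromosome.

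The summed hda6-6 level was 119 ± 11.3 RPKM (SD, n = 3) on chromosome 2, 116 ± 3.45 on chromosome 3, 99.6 ± 7.92 on chromosome 5, 50.0 ± 5.76 on chromosome 1 and 33.4 ± 0.627 on chromosome 4. Chromosomes 2 and 3 did not differ beyond their spread. A few loci set these sums, since the 3 highest members held 83.6% of the chromosome 1 level, 71.6% on chromosome 5, 54.8% on chromosome 3, 52.3% on chromosome 4 and 47.4% on chromosome 2. The highest on chromosome 1 were AT1G36240, AT1G36272 and AT1G36185, which lie between 13560124 and 13635521 on that chromosome. AT1G36272, coding for an uncharacterized protein, was at 12.7, 13.5 and 15.3 RPKM in hda6-6 and at 0 elsewhere, while AT3G24430 on the arm of chromosome 3, 88.6% identical to it over 176 bases, was at 29.1 to 42.8 RPKM in all libraries. On chromosome 4 they were AT4G04030, AT4G06641 and AT4G08691, the last at 3.40, 4.22 and 2.73 RPKM. The other mutants summed to 0.207 to 3.45 RPKM per chromosome as genotype means.

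**Figure D4:**
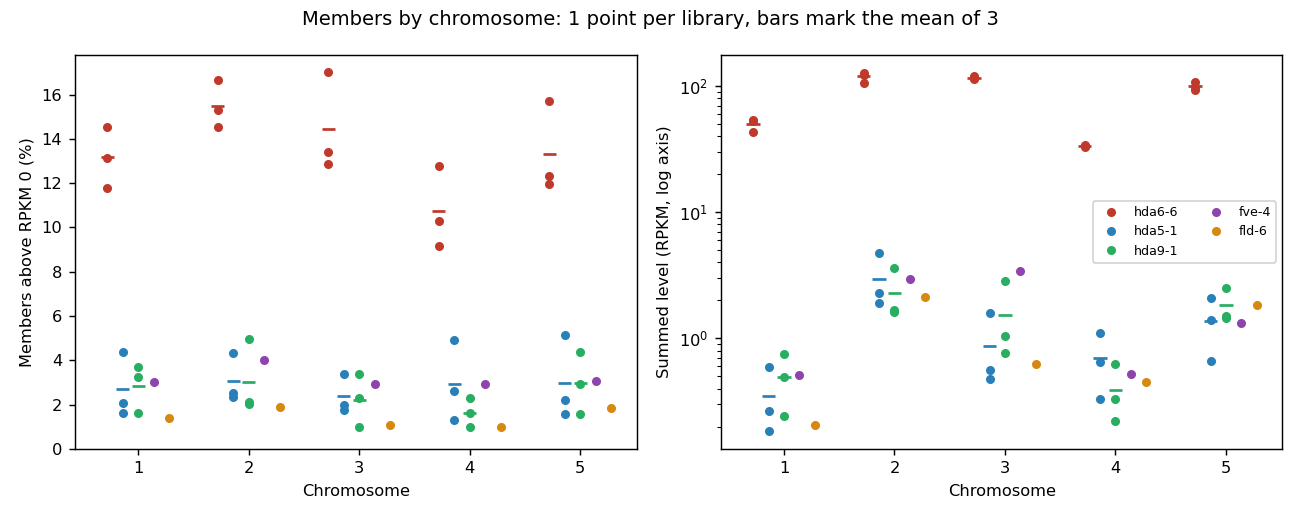
Share of members above an RPKM of 0 (left) and summed RPKM on a log axis (right) for each chromosome, with 1 point per library and a bar at the mean of 3. The hda6-6 means lie between 10.8 and 15.5% and between 33.4 and 119 RPKM, above all points of the other mutants.

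Along the windows, detection in hda6-6 was lower in the middle. With the members of each chromosome split into 5 equal groups in the order of their IDs, 9.89% of the members in the group nearest the start were above 0 in all 3 hda6-6 libraries, then 6.16, 4.83, 5.38 and 9.01%. The middle group was below both end groups on every chromosome. The lowest group was the middle one on chromosomes 1 and 2, at 2.30 and 5.79%, and the second one on chromosomes 4 and 5, at 1.64 and 2.44%. On chromosome 3 the middle group and the next were equal at 3.83%. These shares are descriptive, and the groups hold 86 to 190 members each. The high members were spread out, since the 50 members with a hda6-6 mean of at least 1 and a known position lay at a median distance of 129903 bases from the nearest other one, and 2, AT5G33250 and AT5G33251, lay within 10000 bases of each other.

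**Figure D5:**
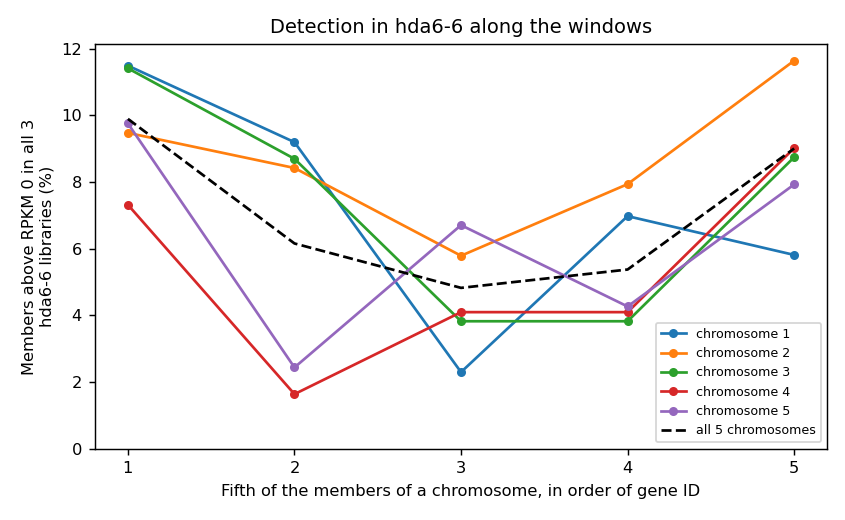
Share of members above an RPKM of 0 in all 3 hda6-6 libraries for 5 equal groups of the members of each chromosome in ID order, with the sum over chromosomes as a dashed line. The dashed line falls from 9.89% to 4.83% in the middle group and returns to 9.01% in the last.

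By annotation, 9.36% of the protein-coding members, 6.75% of the pseudogenes and 4.55% of the transcribed pseudogenes were above 0 in all 3 hda6-6 libraries. The pseudogenes made 48.4% of the summed hda6-6 level and the protein-coding members 32.6%. The 87 IDs outside the annotation made 11.9%, most of it from AT3G43722 and AT3G30778. Among product names searched after the values were seen, 5 of 8 members named after beta-galactosidase, 3 of 8 named after Ulp1 protease and 4 of 31 named after transposons or reverse transcriptase were above 0 in all 3 hda6-6 libraries. None of the 53 ECA1-related members and none of 33 F-box members were, and 1 of 32 defensin-like members was. Detection changed little with exon length, from 7.22% of members up to 300 bases to 8.87% of those over 3000 bases, while a mean of at least 1 RPKM was reached by 9 of 180 in the shortest class and 0.662% of the longest. RPKM divides by length, so 1 read gives a higher value in a short locus.

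To compare the mutants with each other without Col, limma was fitted on log2(RPKM + 0.1) of the 11 mutant libraries over 22962 gene IDs, with a call at an adjusted p under 0.05 (Benjamini-Hochberg over all of them) and a change of at least 2-fold. Of the 3729 members, 166 entered this test, since it needed an RPKM above 0.1 in at least 3 mutant libraries. Of these, 128 had no library outside hda6-6 above 0.1 and had to differ. Any of the other 38 with fewer than 3 such libraries also needed hda6-6 to pass. The counts that follow therefore do not support more than the levels above. In hda6-6 against hda5-1, 149 members were called higher, with 3.69% of all gene IDs tested called higher, and 0 were called lower, with 1.69% of all called lower. Against hda9-1, 146 were called higher, with 6.12% of all called higher, and 0 lower, with 1.83% of all called lower. At an unadjusted p under 0.05 in limma, 0 members were lower than in hda5-1 and 3 were lower than in hda9-1. All 146 were among those higher than in hda5-1. Of the 38 members that reached 0.1 in another mutant, 21 were called higher than in hda5-1 and 19 higher than in hda9-1. Some of the 38 also needed hda6-6 to pass the filter, so these calls too do not support more than the levels above. The median log2 difference of the 166 members was 2.58 and 2.56, beside -0.01 and -0.04 over all genes tested. Since at least 128 of the 166 passed only through hda6-6, these medians too do not support more than the levels above. Without hda6-6 replicate 1, 2 or 3, 19, 19 and 20 members were called against hda5-1, of the 35 to 37 that then still passed the filter, and with a pseudocount of 1 in place of 0.1 the count was 51.

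The members called higher against hda5-1 numbered 53 of 948 on chromosome 2, 39 of 917 on chromosome 3, 26 of 820 on chromosome 5, 16 of 611 on chromosome 4 and 15 of 433 on chromosome 1. This is also the order of the numbers of members. Against the single library of fve-4, 137 members were called higher in hda6-6, with 5.05% of all gene IDs called higher, and against fld-6, 131, with 5.02% of all called higher. The spread of fve-4 and fld-6 was assumed to be that of the genotypes with 3 libraries. No member was called lower, with 2.40% and 2.32% of all gene IDs called lower, and at an unadjusted p under 0.05 in limma 1 and 2 members were lower.

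Between hda5-1 and hda9-1, 0 members were called in limma, and 1 was at an unadjusted p under 0.05. Over all gene IDs tested 4.22% were called higher in hda5-1 and 2.02% lower. The 128 members with no library above 0.1 RPKM outside hda6-6 had no such value to compare here, so these shares cannot be set beside each other. In fld-6 against the mean of hda5-1 and hda9-1, 0 members were called and 3 were at an unadjusted p under 0.05, with 0.827% of all gene IDs called higher and 0.688% lower.

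In fve-4 against the mean of hda5-1 and hda9-1, 4 members were called higher and 0 lower, 0 of them lower also at an unadjusted p under 0.05, with 1.59% of all gene IDs called higher and 1.55% lower. AT3G28193, coding for an uncharacterized protein, was at 0.664 RPKM in fve-4, at 4.56, 8.29 and 7.25 in hda6-6 and at 0 in all other libraries. AT3G30768 was at 0.635 RPKM in fve-4 and 1.56, 0.689 and 0.693 in hda6-6, and at 0 elsewhere, and its hda6-6 libraries were only just above fve-4 (adjusted p = 0.518 in limma). AT2G07213, a long non-coding RNA annotated as antisense to AT2G07215, was at 0.354 RPKM in fve-4, 6.34, 7.74 and 5.67 in hda6-6 and 0.0197 in hda9-1 replicate 2. Counting by strand is not stated, so its reads cannot be told apart from those of its sense partner. AT2G13463 was at 0.23 RPKM in fve-4 and at 6.78, 8.001 and 7.79 in hda6-6. The 4 could enter the test only through hda6-6, since fve-4 is 1 library and the filter needs 3, and with no filter 9 members were called. Their log2 differences in limma ran from 1.72 to 2.93. The spread behind these calls came from hda6-6, hda5-1 and hda9-1, and hda5-1 and hda9-1 were at or near 0 for these members. The fve-4 values stood for 2 estimated reads in AT3G28193, 4.1 in AT2G13463 and 11 in AT2G07213.

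A small set of members was above 0 in every library of hda5-1 or hda9-1. AT3G28310, coding for a protein with a domain of unknown function, was the highest of them. It was at 0.282, 0.125 and 0.14 RPKM in hda5-1, at 1.26, 0.505 and 0.145 in hda9-1, at 0.673, 0.894 and 2.10 in hda6-6, at 1.24 in fve-4 and at 0.253 in fld-6. The hda6-6 libraries lay above all hda5-1 libraries and overlapped those of hda9-1. The log2 difference from hda5-1 was 2.12 (standard error 0.58, adjusted p = 0.044 in limma), and this call was lost under 11 of 15 alternatives, with adjusted p of 0.0163 to 0.16, among them each hda6-6 and each hda5-1 library left out (1.68 without hda6-6 replicate 3). It rested on 1 to 14 estimated reads per library. AT2G15940, a pseudogene, was at 1.43, 0.762 and 0.498 RPKM in hda6-6, 0.119, 0.0837 and 0.024 in hda9-1 and 0.0234, 0 and 0 in hda5-1. Its hda6-6 libraries were all higher, with a log2 difference of 3.11 (standard error 0.38, adjusted p = 0.000445) against hda5-1 and 2.44 (standard error 0.38, adjusted p = 0.00153) against hda9-1 in limma. AT2G15940 needed hda6-6 to pass the filter, since its only value above 0.1 outside hda6-6 was 0.119 in hda9-1 replicate 1. These calls therefore do not support more than its levels. AT3G29580, with a MATH domain, was at 0.228, 0.202 and 0.102 RPKM in hda6-6 between 0.049 and 0.0608 in hda9-1 and 0.0477, 0.0425 and 0 in hda5-1. It was called against hda5-1 (log2 difference 1.08, adjusted p = 0.0487 in limma) and was not called against hda9-1. The call was lost under 8 of 12 alternatives, with each hda5-1 or hda9-1 library left out among them. AT3G29580 passed the filter only through hda6-6, so this call does not support more than its levels.

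Some members were detected in other mutants and not in hda6-6. In all, 270 members (7.24%) were at 0 in the 3 hda6-6 libraries and above 0 in another mutant, beside 4.15% of all gene IDs and 11.9% of the loci outside the windows that were at 0 in Col. In the opposite direction, 562 members (15.1%) were above 0 in hda6-6 and in no other mutant, beside 3.60% of all gene IDs and 9.28% of those outside loci. The 8 libraries of the other mutants had more chances to show a read than the 3 of hda6-6. AT5G36140 (CYP716A2, a cytochrome P450) was at 0.292, 0.0548 and 0.0471 RPKM in hda9-1 and 0.138 in hda5-1 replicate 1, and at 0 in hda6-6. Its neighbour AT5G36150 (PEN3, a putative triterpene synthase) is not one of the 270, since it was at 0.0736 in hda6-6 replicate 1, beside 0.123, 0.046 and 0.079 in hda9-1. AT5G28463 was at 0.0784, 0.0698 and 0.039 in hda5-1 at 0.0352 in fld-6 and at 0 in hda6-6 and hda9-1. These values are near that of a few reads.

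AT5G36002, a long non-coding RNA annotated as antisense to AT5G36001, had uneven values in hda6-6 and hda5-1. It was at 1.11, 0 and 0 RPKM in hda6-6, at 0, 0.939 and 0 in hda5-1, at 0.47, 0.525 and 0.433 in hda9-1, at 0 in fve-4 and at 0.962 in fld-6. Its values above 0 stood for 14.5 to 45.4 estimated reads, and replicates of hda6-6 and hda5-1 fell on both sides. Its reads cannot be told apart from those of the sense gene. The tRNA gene AT2G07764 was at 0.583, 0.646 and 0.325 RPKM in hda6-6, which is 1, 1 and 0.5 read.

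Values just outside the rule show how narrow the threshold was. Of the 1570 window loci left out, 350 were above 0 in 1 Col library only, with a median of 0.0196 RPKM there, and 80 of them (22.9%) were above 0 in all 3 hda6-6 libraries. The lowest such Col values were 0.000399 in AT3G30838, 0.000603 in AT4G06628 and 0.00105 in AT1G43060, which were at 0.0304 to 0.127, 0.000629 to 0.0121 and 0 to 0.0032 RPKM in hda6-6. The highest in hda6-6 were AT3G29633, AT2G04320 and AT4G07965. AT3G29633, a protein-coding locus, was at 0.479 RPKM in Col replicate 3, 35.4, 45.1 and 52.6 in hda6-6 and 11.6 in fve-4, more than any member in fve-4. AT4G07965 was at 0.219 RPKM in Col replicate 2 and 28.1, 29.4 and 28.1 in hda6-6. The rule thus left out loci whose hda6-6 level was as high as that of the highest members.

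Of 37 genes of the silencing pathways, listed from general knowledge (among them DNA methyltransferases, factors of RNA-directed DNA methylation, histone methyltransferases and DNA demethylases), none was a member, and all entered the test. In hda6-6 against hda5-1, 2 were called higher and 1 lower, beside 3.69 and 1.69% of all gene IDs. The 3 were HDA5 (log2 difference 1.72, standard error 0.12, adjusted p = 1.05e-05) and CLSY1, a chromatin remodeller of RNA-directed DNA methylation (1.03, standard error 0.17, adjusted p = 0.00354), as higher, and HDA6 (-1.63, standard error 0.14, adjusted p = 5.05e-05) as lower. Against hda9-1, HDA9 was called higher and HDA6 lower. The list includes HDA5, HDA6, HDA9, FVE and FLD, the genes mutated in these lines. The calls of HDA5, HDA6 and HDA9 were thus set by the genotypes and are no result about the pathways. Of the genes not mutated here, only CLSY1 was called in either comparison. CLSY1 lay at the 2-fold threshold, and its call was lost with a pseudocount of 1 (0.72), without hda6-6 replicate 1 (0.88) and without hda5-1 replicate 2 (1.00). Without hda5-1 replicate 1 the DNA demethylase gene ROS1 was called lower (-1.08). CLSY1 was at a mean of 2.90 RPKM in hda6-6, 1.36 in hda5-1 and 3.22 in Col.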

How the data were processed

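Poly(A) RNA-seq of 14 libraries was taken as deposited, with 1 RPKM value per gene ID and library. Per the labels and the study's methods, the authors called bases with CASAVA 1.8, aligned reads to the TAIR10 genome by Bowtie2, whose version is not given in the sources used here, and computed RPKM with RackJ. The members and the lists were chosen with earlier results of these data known. The rule itself left out 2 further gene IDs of the windows. Groups were taken from the sample titles.

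Detection was counted as an RPKM above 0, without a test. Values were transformed to log2(RPKM + 0.1) and gene IDs above 0.1 in at least 3 of the 11 mutant libraries were tested with limma 3.58.1 (R 4.3.3, eBayes with trend, a model of genotype alone with 6 residual degrees of freedom and 4.02 from the prior) in 7 comparisons. Col was left out of the fit, since it had chosen the members. The script was tested on simulated data.

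Depth was estimated by reading low RPKM values as multiples of 1 read (tolerance of 0.02 read) and used only to describe depth. Exon lengths, classes and sequences came from RefSeq TAIR10.1, which held 3642 of the 3729 member IDs. The files carry no coordinates. Copies were searched with BLAST 2.17.0. Other steps used pandas 2.3.3 and numpy 2.4.6 in Python 3.11.15, and matplotlib 3.10.9 drew the plots. Named members were the 20 highest in hda6-6, the 3 highest there on each chromosome, up to 10 above 0 in all 3 libraries of hda5-1 or hda9-1, the 5 highest in fve-4 and in fld-6, members called lower in hda6-6 (0 were found), and 6 loci just outside the threshold, and other loci were named as copies after their values were seen. Alternatives covered the pseudocount, the filter, scaling, Col in the fit, the fold threshold, a replicate block and each library left out.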

Additional observations from a re-analysis of the deposited data

How the results depend on the processing

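Counts of called members in the 4 comparisons of hda6-6 stayed within 1.5 times with a pseudocount of 0.01, no filter, size factors, Col in the fit and no fold threshold. Members called lower in hda6-6, 0 in the report, were 2 against fve-4 and 2 against fld-6 with no filter, 1 against fve-4 with Col in the fit, without hda6-6 replicate 1 or without hda9-1 replicate 2, and 1 and 2 against hda9-1 without hda9-1 replicates 1 and 3. With a pseudocount of 1 the counts of called members fell to 51 (hda5-1), 51 (hda9-1), 49 (fve-4) and 51 (fld-6), all higher in hda6-6. Low members move less on that scale. Leaving out 1 library in turn gave 19 to 148 against hda5-1, 19 to 148 against hda9-1, 14 to 133 against fve-4 and 17 to 127 against fld-6. The low counts (20 or fewer) came with each hda6-6 library left out, when 35 to 37 members entered the test, because a member seen in hda6-6 alone cannot then pass a filter in 3 libraries. With the filter in 2 libraries, chosen after seeing the data, the counts without a hda6-6 library were 160 to 164, 161 to 165, 136 to 153 and 139 to 143, 1 of them lower in hda6-6 than in fve-4 without hda6-6 replicate 1. Without a hda9-1 library, 1 member was called between hda5-1 and hda9-1 (0 to 1 over all libraries left out). The 4 members of fve-4 became 0 with a pseudocount of 1, 10 with 0.01, 9 with no filter, 7 with Col in the fit and 4 to 5 with a library left out, and the 0 of fld-6 became 1 with 0.01 and 2 with no filter.

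Members above 0 in all 3 libraries numbered 263 in hda6-6, 5 in hda5-1 and 6 in hda9-1. At an RPKM of at least 0.1 these were 150, 1 and 2, in at least 2 of 3 libraries 434, 31 and 31, and in at least 1 library 837, 278 and 250. In the pseudogene classes alone they were 2 in hda5-1 and 1 in hda9-1. With hda9-1 in place of Col in the rule hda5-1 had 10, and with hda5-1 in its place hda9-1 had 1. Leaving out 1 library gave 305 to 334 in hda6-6, 10 to 20 in hda5-1 and 13 to 16 in hda9-1.

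Same-numbered libraries of different genotypes deviated together in 6 of 18 pairs (correlation above 0.1, range -0.07 to 0.17), so the numbers were not taken as pairs. The 6 pairs of replicate 1 libraries were all above 0 (0.09 to 0.17), 5 of them above 0.1, while those of replicates 2 and 3 lay between -0.07 and 0.13, with 3 and 2 of 6 above 0. A replicate block gave 147, 146, 112 and 115 called members in the hda6-6 comparisons. Of the fold changes of named loci, 839 stayed on their side, 26 lost and 1 gained a call, and 12 turned sign, none of them a called value. These were AT2G07000 against hda9-1 (0.14, 0.14 and 0.40, range -0.46 to 0.40 with a library left out), AT2G15340 (against hda5-1 0.01 with a pseudocount of 1 and 0.34, range -0.11 to 0.34, and against hda9-1 -0.17, range -0.17 to 0.54), AT5G27889 against hda9-1 (-0.04, -0.49 and -0.59, range -0.59 to 0.89) and AT5G36002 against hda5-1 (-1.13, -0.49 and -0.49, range -1.13 to 1.20). The cause was not tested. Detection below a few reads is limited by depth, and 1 library each of fve-4 and fld-6 has no replicate check.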
